A study of Mus musculus with 2 samples.

Results

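Potassium channel genes were followed in 2 RNA-seq libraries of cultured mouse MDSCs. These myeloid-derived suppressor cells are immature neutrophil-like and monocyte-like cells that hold back T cells. The set comprised 9 of the 54751 gene models in the deposited count table, picked by symbol: Kcnj15, Kcnj2, Kcnn4, Kcna3, Kcnk6, Kcnk13, Kcnab2, Kcne3 and Kcnq1. The set was drawn up with these 2 libraries' values in view, so every difference given here for the 9 genes is a description. The annotation holds 94 protein-coding genes whose symbol begins with Kcn, and the other 85 were followed as the rest of the family.

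Both libraries came from wild-type mouse bone marrow cells grown in serum-containing medium, labelled as MDSCs and collected on day 6. The control culture was given vehicle and the other culture mrWNT2, an agent named for the secreted signalling protein WNT2, on day 0 and day 3. The strain, sex and age of the mice, the dose, and how many animals were pooled are not stated in the labels. There was 1 library per condition, so no difference has a replicate check and no test was possible. Intervals are exact 95% intervals for counting error only, Poisson for a level and binomial (Clopper-Pearson) for a ratio or a share. They compare the 2 libraries and not the conditions.

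Potassium channels let potassium ions leave or enter the cell along their gradient and so set the membrane voltage. Inward rectifiers (Kcnj genes) hold the resting voltage, tandem-pore or two-pore channels (Kcnk genes) carry a background leak, and other classes open with calcium or with voltage. In myeloid cells the resulting negative voltage draws calcium in through store-operated channels, and loss of potassium from the cell is a trigger of the NLRP3 inflammasome, which processes interleukin-1 beta.

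Of the 9 genes, Kcnj15 stood far apart: its transcript was near the limit of counting in the control library and within counting error of the length-scaled level of Kcnj2 in the mrWNT2 library. Kcnj2 and Kcnn4 were slightly higher in the mrWNT2 library and Kcnk13 lower. With the main scaling of the libraries, Kcnab2, Kcnk6 and Kcna3 differed by less than their counting error. Kcne3 was too weakly expressed to place, and Kcnq1 had 0 counts in both libraries.

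The promoter sequences of 3 of the genes are printed first because they belong to the gene with the highest ratio (Kcnj15), to its relative of the same class that was well expressed in both libraries (Kcnj2), and to the measured gene of the set with the lowest ratio (Kcnk13). Each is the RefSeq window of 300 bases on GRCm38.p6, from 250 bases before the annotated start site to 50 after it, and is written 5′ to 3′ on the + strand, which is the strand of all 3 genes. The windows are chr16:95257308-95257607, chr11:111065914-111066213 and chr12:99964249-99964548. Capitals mark matches to any of 5 motifs searched on both strands.
Kcnj15: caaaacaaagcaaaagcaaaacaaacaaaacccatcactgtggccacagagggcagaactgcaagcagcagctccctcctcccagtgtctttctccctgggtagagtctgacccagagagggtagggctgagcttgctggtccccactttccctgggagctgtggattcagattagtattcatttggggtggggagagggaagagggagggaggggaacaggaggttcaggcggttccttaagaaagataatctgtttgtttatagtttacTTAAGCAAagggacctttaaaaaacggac
Kcnj2: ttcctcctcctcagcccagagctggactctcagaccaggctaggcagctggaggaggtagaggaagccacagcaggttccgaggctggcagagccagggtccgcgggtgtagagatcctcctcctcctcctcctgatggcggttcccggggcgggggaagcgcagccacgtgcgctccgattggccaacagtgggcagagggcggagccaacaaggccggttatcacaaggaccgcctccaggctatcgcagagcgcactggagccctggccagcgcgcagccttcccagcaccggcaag
Kcnk13: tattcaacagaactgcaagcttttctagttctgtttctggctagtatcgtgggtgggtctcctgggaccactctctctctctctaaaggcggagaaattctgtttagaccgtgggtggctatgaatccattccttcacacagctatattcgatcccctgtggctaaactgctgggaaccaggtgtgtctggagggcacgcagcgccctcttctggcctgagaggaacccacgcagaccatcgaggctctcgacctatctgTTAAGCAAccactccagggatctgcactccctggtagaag

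The motifs were CTTTGA (TCF/LEF, the factors through which canonical WNT signalling acts), the NF-kB consensus, TGANTCA (AP-1), TTGCNNAA (C/EBP) and GAGGAAGT (PU.1). Among the 32851 promoter windows of the table, 16.0% held the TCF/LEF letters, 8.46% the NF-kB consensus, 7.81% the AP-1 letters, 10.8% the C/EBP letters and 3.20% the PU.1 letters. The Kcnj15 and Kcnk13 windows each held the same C/EBP match, TTAAGCAA, on the opposite strand, starting 21 and 10 bases past the start site, although the ratios of these genes lay on opposite sides of 1. The Kcnj2 window held none of the 5. The Kcnj15 window had 2 CG dinucleotides and a GC content of 49.7%, the Kcnj2 window 18 and 66.7%, and the Kcnk13 window 9 and 52.7%, against medians of 7 and 52.7% over the table. Of the 9 genes, 7 had 10 entries in the table. Among those not printed, the Kcnn4 window held the NF-kB match GGGACCTCCC. A Kcne3 window held the AP-1 match TGAATCA, and the remaining windows held none of the 5. A match is a run of letters and not a site of binding. The annotation gives Kcnj15 8 distinct start positions, and counts per gene do not tell which was used.

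Kcnj15 (ENSMUSG00000062609, chromosome 16, 95257558 to 95300260, + strand, GRCm38) encodes the inward rectifier Kir4.2, a channel known from kidney. GENCODE M21 lists 13 transcripts, and the transcript with the longest coding sequence has 4 exons, 2 of them coding. It had 4 counts in the control library and 344 in the mrWNT2 library. In CPM, the count scaled to library size with TMM factors, these were 0.299 (interval 0.0815 to 0.766) and 27.1 (24.3 to 30.1). The control level was thus close to the 0.224 CPM that 3 counts would give there, and the 2 intervals do not overlap. The ratio was 90.4 (35.0 to 334), ranking 3 of the 12856 genes measured, meaning that the 2 libraries averaged 1 CPM or more. By deposited FPKM, which scales to gene length, Kcnj15 stood at percentile 0.140 of those genes in the control library (0.0479 FPKM) and at percentile 42.4 in the mrWNT2 library (4.24 FPKM). Kcnj15 reached the mean of 1 CPM only through the mrWNT2 library.

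Kcnj15 lies under the longer antisense model AC154546.2 and overlaps a second one, AC154691.1. Those models had 1 and 0 counts in the control library and 5 and 3 in the mrWNT2 library. The labels do not say if strand was used in counting, so the split of reads between overlapping models is uncertain. The nearest protein-coding gene on one side is Kcnj6, another inward rectifier, 259.9 kb away, with 1 and 0 counts. On the other side, 58.9 kb away, is Erg, an ETS-family transcription factor gene, with 647 and 576 counts (1.07-fold lower, interval 0.953 to 1.20). The interval of Erg lay far below that of Kcnj15, while the counts of Kcnj6 and of the antisense models were too few to compare. The 3 protein-coding genes averaging 10 CPM or more and nearest to Kcnj15 in log2 ratio were Cp (94.5-fold higher), Prickle2 (139-fold) and Ly6i (47.5-fold). They ranked 2, 1 and 4 by ratio, around Kcnj15 at 3, so their nearness only restates these top ranks. They had 11, 3 and 23 counts in the control library, and each averaged 10 CPM only through the mrWNT2 library. With 2 libraries this likeness rests on a single ratio per gene.

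Kcnj2 (ENSMUSG00000041695, chromosome 11, 111066164 to 111076821, + strand) encodes Kir2.1, the classical strong inward rectifier of macrophages and muscle, from a transcript of 2 exons with 1 coding exon. It had 272 counts in the control library and 335 in the mrWNT2 library, or 20.3 (18.0 to 22.9) and 26.3 (23.6 to 29.3) CPM. The mrWNT2 level was the higher, and the ratio of 1.30 (1.10 to 1.53) had an interval above 1. Kcnj16, which encodes Kir5.1, a partner subunit of Kir4.1 and Kir4.2, lies 38.2 kb from Kcnj2 and had 1 and 0 counts.

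**Figure D1:**
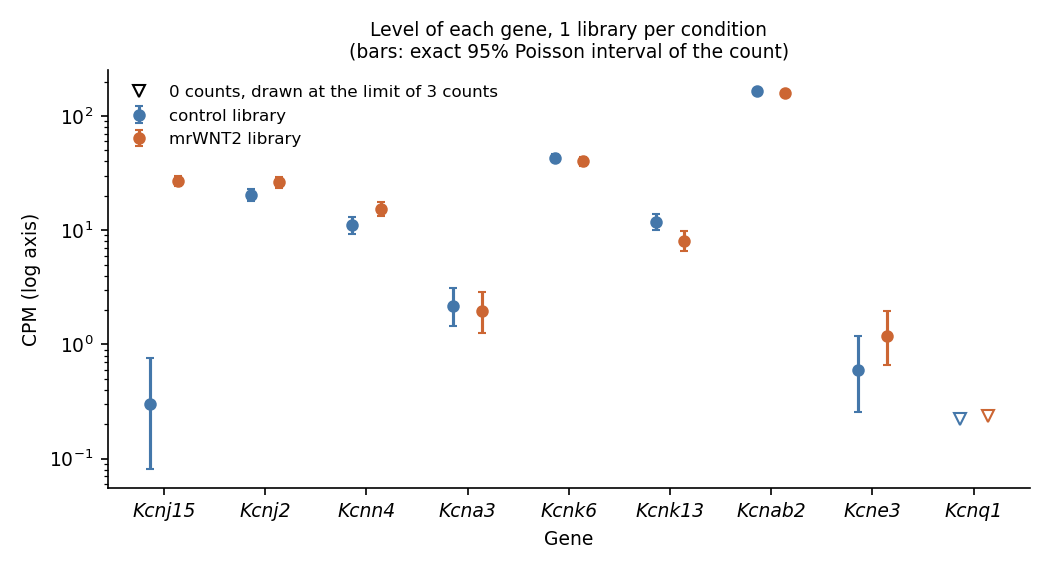
CPM of the 9 genes in the control (blue) and mrWNT2 (orange) library on a log axis, with exact 95% Poisson intervals of the counts; open triangles mark 0 counts, drawn at the level of 3 counts. Kcnj15 goes from 0.299 to 27.1 CPM, while the intervals of the libraries overlap for Kcnab2, Kcnk6, Kcna3 and Kcne3.

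The make-up of the inward rectifier class differed between the libraries. Of its 15 genes, 9 had any count and 4 a mean of at least 1 CPM. Summed over the class there were 335 counts in the control library and 717 in the mrWNT2 library, a ratio of 2.25 (1.97 to 2.57). Without Kcnj15 the sums were 331 and 373, a ratio of 1.19 (1.02 to 1.38). Kcnj15 made up 1.19% (0.326 to 3.03) of the class's counts in the control library and 48.0% (44.3 to 51.7) in the mrWNT2 library, while the share of Kcnj2 went from 81.2% (76.6 to 85.2) to 46.7% (43.0 to 50.5). Per length, the level of Kcnj15 was 1.27% (0.343 to 3.28) of that of Kcnj2 in the control library. In the mrWNT2 library it was 88.6% of it, with a ratio of 0.886 (0.760 to 1.03) whose interval includes equal levels.

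Kcnj10, which encodes Kir4.1, was the opposite case within the class. It had 30 and 14 counts, or 2.24 and 1.10 CPM, and was 2.04-fold lower (1.05 to 4.16) in the mrWNT2 library. Kcnj5, which encodes a G protein-gated inward rectifier, had 22 and 19 counts (1.10-fold lower, 0.569 to 2.15). Another 6 Kcnj genes had no count in either library.

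**Figure D2:**
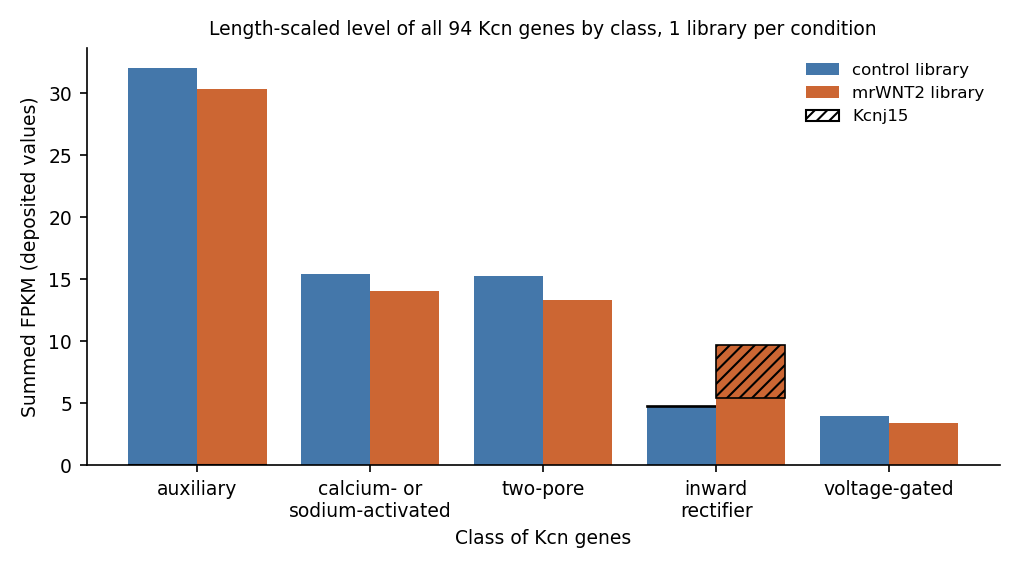
Summed deposited FPKM of all 94 Kcn genes by class in the control (blue) and mrWNT2 (orange) library, with the part of Kcnj15 hatched. The inward rectifier sum goes from 4.77 to 9.67 FPKM and the other 4 classes are slightly lower in the mrWNT2 library.

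Kcnn4 (ENSMUSG00000054342, chromosome 7, 24370263 to 24386690, + strand) encodes KCa3.1, the intermediate-conductance channel of blood cells that opens when calcium binds its calmodulin. Its transcript with the longest coding sequence has 9 exons, 8 of them coding. It had 148 counts in the control library and 196 in the mrWNT2 library, or 11.1 and 15.4 CPM. The ratio was 1.39 (1.12 to 1.74), with an interval above 1, and its measured neighbour Smg9 was 1.02-fold lower (0.890 to 1.18). Kcnn3, the small-conductance relative SK3, is outside the set but was the more abundant of the pair. It had 1817 and 1483 counts and was 1.17-fold lower (1.09 to 1.25) in the mrWNT2 library. Per length, Kcnn3 stood 6.01-fold (5.08 to 7.15) above Kcnn4 in the control library and 3.70-fold (3.19 to 4.32) above it in the mrWNT2 library.

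The tandem-pore genes were led by Kcnk6 (ENSMUSG00000046410, chromosome 7, 29221926 to 29232515, - strand), which encodes TWIK2, a channel described as a route of potassium efflux ahead of NLRP3 activation in macrophages. It had 576 and 510 counts, or 43.1 (39.6 to 46.7) and 40.1 (36.7 to 43.7) CPM. The levels overlapped, with a ratio of 0.931 (0.825 to 1.05). Kcnk13 (ENSMUSG00000045404, chromosome 12, 99964499 to 100062682, + strand) encodes THIK1, the background channel known from microglia. It had 158 and 103 counts, or 11.8 (10.0 to 13.8) and 8.10 (6.61 to 9.82) CPM. The mrWNT2 level was the lower, with a ratio of 0.686 (0.530 to 0.884).

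In fold terms Kcnk13 was 1.46-fold lower (1.13 to 1.89). Its flanking gene Tdp1 had 186 and 173 counts (1.02-fold lower, 0.827 to 1.26), and these 2 intervals overlap. The other flanking gene, the proteasome ATPase gene Psmc1, was 1.20-fold higher (1.12 to 1.29). Per length, Kcnk6 stood 2.73-fold (2.29 to 3.28) above Kcnk13 in the control library and 3.71-fold (3.00 to 4.63) in the mrWNT2 library. Kcnk12, which encodes the THIK2 relative of Kcnk13, had 6 and 7 counts. Kcnk5, which encodes the acid-sensitive TASK2, had 14 and 17 counts (1.28-fold higher, 0.592 to 2.80). Of 14 Kcnk genes, 7 had no count.

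Voltage-gated subunits of the Kv1 group (Kcna genes) were scarce beside their auxiliary partner. Kcna3 (ENSMUSG00000047959, chromosome 3, 107036169 to 107038070, + strand) is a single-exon gene for Kv1.3, a channel of T cells and macrophages. It had 29 and 25 counts, or 2.17 (1.45 to 3.11) and 1.97 (1.27 to 2.90) CPM. The ratio of 0.907 (0.509 to 1.60) leaves changes in either direction within counting error. The other Kv1 genes were nearly silent, with 2 and 0 counts for Kcna2, 0 and 2 for Kcna7, and no count for the remaining 5 of the 8.

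Kcnab2 (ENSMUSG00000028931, chromosome 4, 152390742 to 152477871, - strand) encodes Kv-beta-2, a cytoplasmic partner of Kv1 channels with the fold of an aldo-keto reductase. It had 2201 and 2021 counts, or 164.6 (157.8 to 171.6) and 158.9 (152.1 to 166.0) CPM. With TMM scaling the libraries differed by less than counting error, with a ratio of 0.966 (0.909 to 1.03). Per length, Kcnab2 stood 25.9-fold (18.0 to 38.7) above Kcna3 in the control library and 27.6-fold (18.6 to 42.7) in the mrWNT2 library. Kcnab2 alone held 38.0% (36.7 to 39.3) and 36.8% (35.5 to 38.1) of all Kcn counts. Its start overlaps Nphp4 on the other strand, which had 15 and 18 counts.

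Kcne3 and Kcnq1 are known as partners: KCNE3, a single-pass auxiliary subunit, holds the KCNQ1 channel open in epithelia. Kcne3 (ENSMUSG00000035165, chromosome 7, 100176502 to 100184869, + strand) had 8 counts in the control library and 15 in the mrWNT2 library, or 0.598 (0.258 to 1.18) and 1.18 (0.660 to 1.95) CPM. The ratio of 1.97 (0.785 to 5.37) includes 1, and the mean was below 1 CPM. Kcnq1 (ENSMUSG00000009545, chromosome 7, 143106362 to 143427042, + strand) had 0 counts in each, and 3 counts, about the 1-sided 95% limit of a 0, would be 0.224 CPM in the control library and 0.236 CPM in the other. The 2-sided Poisson interval used for the other levels reaches 0.276 and 0.290 CPM. The antisense RNA Kcnq1ot1, which is transcribed from within Kcnq1, had 110 and 92 counts (1.14-fold lower, 0.854 to 1.52). Kcnq5, another gene of the same voltage-gated family, had 21 and 16 counts.

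Per length, the order of the genes in the control library was Kcnab2 at 29.9 FPKM, Kcnk6 at 10.5, Kcnk13 at 3.84, Kcnj2 at 3.78, Kcnn4 at 2.19, Kcna3 at 1.15, Kcne3 at 0.340 and Kcnj15 at 0.0479. Kcnk13 and Kcnj2 could not be separated there by their counts. In the mrWNT2 library the order was Kcnab2 at 28.2 FPKM, Kcnk6 at 9.55, Kcnj2 at 4.78, Kcnj15 at 4.24, Kcnn4 at 2.98, Kcnk13 at 2.57, Kcna3 at 1.02 and Kcne3 at 0.655. In that order Kcnj2 and Kcnj15, Kcnn4 and Kcnk13, and Kcna3 and Kcne3 were neighbours within counting error. Kcnj15 moved from last of the 8 detected genes to the level of Kcnj2, and Kcnk13 no longer stood above Kcnn4.

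Of the 9 genes, 7 had a mean of at least 1 CPM, and 1 of these, Kcnj15, was higher in the mrWNT2 library by 2-fold or more, against 3.38% of the 12856 genes measured. At least 2-fold lower were 0 of the 7, against 2.49%. At the milder limit of 1.5-fold the counts were again 1 higher (7.62% of all genes) and 0 lower (7.02%). The interval lay above a ratio of 1 for 3 of the 7, against 21.0% of all genes, and below it for 1, against 18.8%. The median log2 ratio of the 7 was -0.05, beside 0.02 over all measured genes. Since the genes were picked with these values known, nothing is read from these shares.

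**Figure D3:**
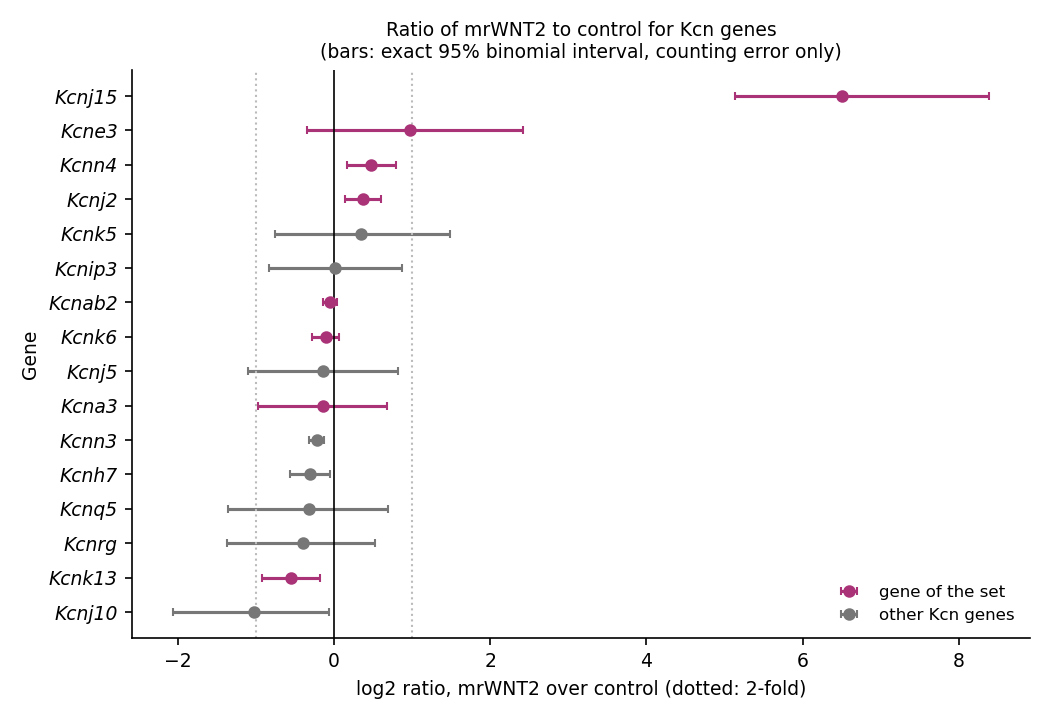
Log2 ratio of mrWNT2 over control, with exact 95% binomial intervals, for the genes of the set with a ratio (purple) and other measured Kcn genes (grey). Kcnj15 lies at 6.50, and the interval of every other gene shown reaches inside the dotted 2-fold lines.

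The family of 94 was fixed by symbol, but the other 85 genes are those left after the 9 were picked with values known. Over all 94 genes, 16 were measured, with an interval above 1 for 3 and below it for 4. The shares over all measured genes were 21.0% and 18.8%, and the median log2 ratio of the 16 was -0.12. Of the 85 other Kcn genes, 44 had no count in either library and 9 had a mean of at least 1 CPM. None of these 9 was at least 1.5-fold higher (7.62% over all genes) and 1, Kcnj10, was at least 1.5-fold lower (7.02%). The interval lay below 1 for 3 of them, Kcnn3, Kcnj10 and Kcnh7, and above 1 for 0, and their median log2 ratio was -0.22. The 3 Kcn genes with an interval above 1 were all in the picked set, so nothing is read from the 0. Kcnh7, which encodes a voltage-gated channel of the ERG class, had 291 and 224 counts (1.24-fold lower, 1.03 to 1.48). The auxiliary genes Kcnip3 (1.01-fold higher, 0.560 to 1.82) and Kcnrg (1.32-fold lower, 0.692 to 2.57) had 25 or 26 counts in the control library.

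Summed over all 94 genes the level was 433.3 CPM in the control library and 432.3 in the mrWNT2 library. Without Kcnj15 the sums were 433.0 and 405.2 CPM, a 1.07-fold lower level (1.03 to 1.11). Kcnj15 had the largest gain in level of all Kcn genes, 26.8 CPM, and Kcnn3 the largest loss, from 135.9 to 116.6 CPM. Kcnj15 made up 0.0690% (0.0188 to 0.177) of all Kcn counts in the control library and 6.26% (5.63 to 6.93) in the mrWNT2 library.

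**Figure D4:**
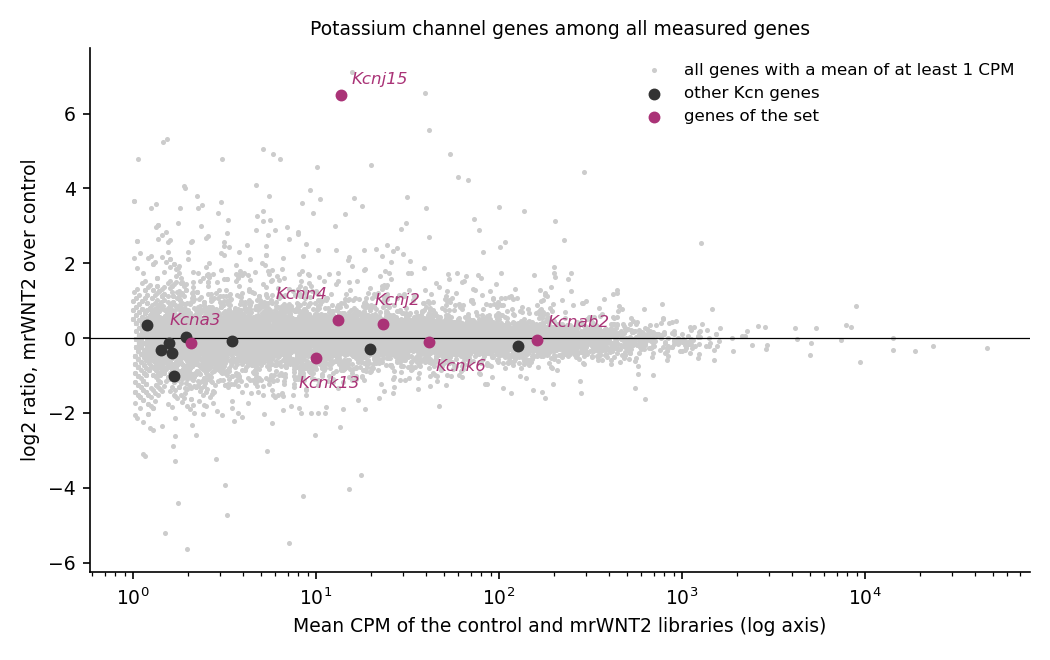
Mean CPM (log axis) against log2 ratio for the 12856 measured genes (light grey), with the genes of the set in purple and other Kcn genes in black. Kcnj15 lies near the top of the cloud at 6.50, and the others lie between -1.03 and 0.48.

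Genes that work beside these channels were counted from 5 lists, to be read beside the 7.62% of all measured genes that were at least 1.5-fold higher, the 7.02% that were at least 1.5-fold lower and the overall median of 0.02. Potassium pumps and cotransporters, which rebuild the potassium gradient, had 11 of 19 genes measured, with 1 at least 1.5-fold higher, 0 lower and a median log2 ratio of -0.08. The higher gene was Slc12a4, a potassium-chloride cotransporter gene (1.59-fold, 1.31 to 1.93). Atp1b1, a beta subunit gene, had 70 and 91 counts.

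The list of potassium efflux and NLRP3 genes had 18 of 19 measured, 4 at least 1.5-fold higher (7.62% over all genes) and 0 lower (7.02%), with a median of 0.22. The 4 were the cytokine genes Il1a (19.9-fold) and Il1b (5.91-fold), the volume-regulated anion channel subunit gene Lrrc8b (1.97-fold, 1.62 to 2.38) and the inflammatory caspase gene Casp4 (1.54-fold, 1.35 to 1.76). Nlrp3 itself had 1486 and 1922 counts and was 1.36-fold higher (1.27 to 1.46). P2rx7, which encodes the ATP-gated channel that releases potassium, had 119 and 124 counts (1.10-fold higher, 0.845 to 1.42), and Nek7, which binds NLRP3 after efflux, was 1.02-fold lower (0.928 to 1.12).

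Calcium entry and release channels had 19 of 21 genes measured, 4 at least 1.5-fold lower (7.02% over all genes) and 1 higher (7.62%), with a median of -0.09. The voltage-gated calcium channel gene Cacna1d, with 392 and 101 counts, was 3.69-fold lower (2.96 to 4.64). Trpm2, which encodes an oxidant-activated cation channel, was 1.90-fold lower (1.73 to 2.08), and Trpv4 2.17-fold lower (1.33 to 3.62). Trpc6, the fourth, had 19 and 11 counts with an interval that included 1. The calcium-activated channel gene Trpm4 was 1.85-fold higher (1.24 to 2.78). The store-operated channel gene Orai1 was 1.08-fold higher (0.966 to 1.21) and its sensor gene Stim1 1.20-fold lower (1.13 to 1.29).

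Other ion channels of phagocytes had 10 of 17 genes measured, 2 at least 1.5-fold higher (7.62% over all genes) and 0 lower (7.02%), with a median of 0.05. Best1, which encodes a calcium-activated anion channel, had 74 and 315 counts (4.48-fold higher, 3.47 to 5.85), and the lysosomal chloride exchanger gene Clcn7 was 1.65-fold higher (1.54 to 1.77). Clcn5 was 1.42-fold lower (1.28 to 1.58) and Ano10 1.21-fold lower (1.12 to 1.30). All 13 measured regulators of these channels lay within 1.5-fold, with a median of -0.04. Among them, Nedd4l, a ubiquitin ligase gene, was 1.31-fold higher (1.10 to 1.56), Trim27 1.18-fold lower (1.07 to 1.30) and Pip5k1a 1.17-fold higher (1.03 to 1.32). Pik3c2b had 100 and 71 counts, with an interval that included 1.

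**Figure D5:**
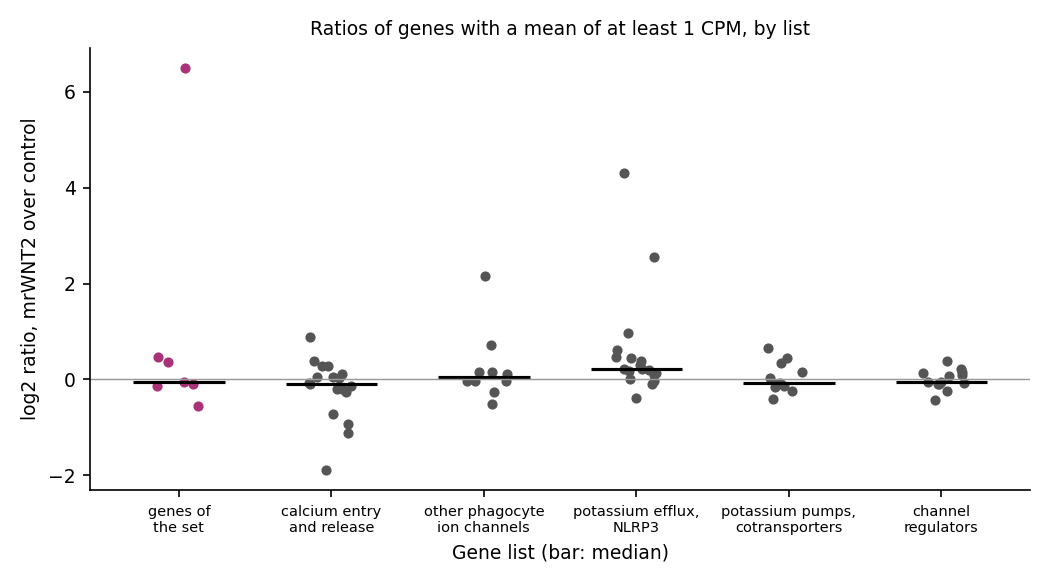
Log2 ratio of each measured gene in the set and in the 5 lists, with the median as a bar; horizontal jitter within a list is arbitrary. Medians lie between -0.09 and 0.22, and single genes such as Kcnj15, Il1a, Best1 and Cacna1d lie far from them.

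The label of the cells was checked against markers. The myeloid genes Itgam, Ly6c2, Cd33, S100a8 and S100a9 were abundant in both libraries, and Ly6g was present with 2315 and 1098 counts. The list of 7 label markers also held Ly6c1, which was measured but far less abundant than the others. In bulk RNA, fewer cells of a type and less RNA per cell cannot be told apart. Over all measured genes, the shares beyond the 1.5-fold limit were 7.62% on the higher side and 7.02% on the lower side. The marker counts below are small and are to be read beside these shares. The summed level of 5 monocyte markers was 2151 CPM in control and 2789 in mrWNT2, with 3 of 5 at least 1.5-fold higher. That of 9 macrophage markers was 2238 and 1934 CPM, with 5 lower and 2 higher by 1.5-fold or more. That of 9 neutrophil markers was 43657 and 33881 CPM, with 2 of 9 at least 1.5-fold lower. That of 5 megakaryocyte markers was 530.2 and 256.2 CPM, with 1 of 4 measured at least 1.5-fold lower and Gp1bb at 0. The lower gene was Pf4, with a mean of 282.2 CPM and a log2 ratio of -1.46, while the median of the 4 was -0.17. That of 8 stromal and endothelial markers was 66.3 and 58.5 CPM, with 3 of 6 measured at least 1.5-fold lower, all 3 by 2-fold or more. Eosinophil markers summed to 955.2 and 1125 CPM, with 1 of 5 at least 1.5-fold lower and a median log2 ratio of -0.14. Mast cell and basophil markers summed to 196.7 and 164.4 CPM, with 1 of 6 at least 1.5-fold lower, and that gene by 2-fold or more. These sums differed beside Kcnj15 and Kcnk13, and their part in those ratios was not tested. Of 10 T and NK cell markers, 1 was measured, Cd247, with 1 and 36 counts, and only through the mrWNT2 library. The sum of the 10 was 1.72 and 4.48 CPM, beside the 2.17 and 1.97 CPM of Kcna3. Cd247 carried the rise in that sum, while Zap70 and Ncr1 were at 0 and Cd3e at 1 and 0 counts. Of 8 neuron and muscle markers, 4 (Snap25, Syt1, Myh6 and Actc1) had no count, and the sum was 1.79 and 1.34 CPM.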

How the data were processed

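Libraries were made from total RNA extracted with TRIzol, using the NEBNext Ultra RNA kit, per the labels' protocols. Per the submitters' processing notes, the build was GRCm38 (mm10), and the tools included HISAT2 2.0.5 (an aligner) and featureCounts 1.5.0-p3 (a read counter), beside CASAVA, fastp and DESeq2. The authors deposited raw counts per gene and FPKM, with 1 column per library (13474453 counts for control, 12621110 for mrWNT2). Over 10078 genes with more than 50 counts in both, log2 ratios of the deposited FPKM and of the counts scaled by DESeq2 1.42.0 size factors differed by at most 1.2e-08.

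Counts were scaled with TMM in edgeR 4.0.16 (R 4.3.3). A ratio is the quotient of CPM without a pseudocount, and 0 was replaced by 3 counts where the other library had more than 3. Reads carry no molecular identifiers, so intervals and floors cover counting error only. A gene is called measured where the 2 libraries average 1 CPM or more. The script was tested on simulated counts.

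The 9 genes, the lists and the rules were chosen with earlier results of these data known. Genes named were the 9, every other measured Kcn gene, up to 4 of each pathway list with the largest ratio in size, the nearest protein-coding neighbours and overlapping models, and the 3 genes nearest to Kcnj15 in ratio. A few genes that these rules would name are not reported here. Other list genes and markers are examples chosen after their values were seen. Promoter sequences are from RefSeq (GRCm38.p6), and gene structures from GENCODE M21, whose spans equal the deposited ones for all 9 genes. Alternatives were other scalings, the deposited FPKM, a pseudocount and other expression minimums.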

Additional observations from a re-analysis of the deposited data

How the results depend on the processing

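The sign of the log2 ratio of each of the 8 genes with a ratio was the same under DESeq2 size factors, total counts, upper-quartile factors, the deposited FPKM and the pseudocount. Under a pseudocount of 1 CPM the log2 ratio of Kcnj15 was 4.43 instead of 6.50, because its control level is below the pseudocount. With upper-quartile factors, 1 gene of the set, Kcnk13, was at least 1.5-fold lower instead of 0, and 2 of all Kcn genes instead of 1. The median of all genes moved by at most 0.05 (log2) under any of these scalings. That largest shift, with upper-quartile factors, took the log2 ratio of Kcnab2 from -0.05 to -0.10. The upper bound of its TMM interval was 0.04 (log2), so with those factors the interval lay below a ratio of 1.

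The expression minimum set most counts. With none, 2 genes of the set were at least 1.5-fold higher instead of 1, as Kcne3 entered. Of all Kcn genes, 2 were then at least 2-fold higher and 5 lower, and 4 and 5 at the 1.5-fold limit, against 1 each. The genes that entered at the 2-fold limit, named after their values were seen, were Kcnk7 on the higher side and Kcnh4, Kcnab1, Kcnip4 and Kcnk18 on the lower, each with at most 13 counts in a library. With a mean of at least 10 CPM, 0 Kcn genes were at least 1.5-fold or 2-fold lower. Over all genes, 154 were then at least 2-fold higher and 61 lower (352 and 252 at 1.5-fold), and without a minimum 1543 and 1270 (2532 and 2675), against 435 and 320 (980 and 902). Calcium channels at 10 CPM had 1 gene at least 2-fold lower, and 0 higher and 2 lower at 1.5-fold. Without a minimum, other phagocyte channels had 3 genes at least 2-fold and 4 at least 1.5-fold higher, and potassium pumps and cotransporters 1 gene at least 1.5-fold lower. The remaining 238 of the 262 values recomputed stayed within counting error, or within 1.5 times for counts. No paired analysis was possible because each condition had 1 library. Depth limits Kcna3, Kcne3, Kcnj10 and Kcnq1, each with at most 30 counts in a library.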
